A study of Mus musculus with 2 samples.

Results

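The genes described here build the transport machinery and the gate of the primary cilium. They were selected on their symbols (Ift, Bbs and Tctn followed by a number, and Tmem67, Tmem107, Tmem138, Tmem216 and Tmem231) and on a count of at least 10 in 1 library. All 29 rows of the count table that carried such a symbol reached that count, among 12941 genes that reached it in the whole table of 25509 genes. Bbs1 was the least covered of them, with 109 and 51 counts, so that no gene of the group lay near the limit of 10.

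The study compared 2 poly(A) RNA-seq libraries of mouse soft-tissue sarcoma cells. The cells were mesenchymal stem cells of the C57BL/6 strain that lacked p53 and overexpressed Ccne1, had grown as tumors under the skin of a first host, and were recovered from sarcoma foci in the lungs of a second host. They were then transduced with the control hairpin (shCTR) or with a hairpin against circCsnk1g3 (shcircCsnk1g3), a circular RNA made from exons of the Csnk1g3 gene, so both libraries share the p53 loss, the Ccne1 overexpression and the passage through the lung. With 1 library per group no test between the conditions was possible, and every difference below is one between 2 libraries.

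The primary cilium is a single antenna-like protrusion of the cell surface, built on a centriole when a cell leaves the division cycle and taken down again before mitosis. Intraflagellar transport (IFT) carries its cargo along the microtubules of the shaft: trains of the IFT-B complex are drawn to the tip by kinesin-2 motors, and trains of the IFT-A complex take part in the return journey by dynein-2 and in the entry of membrane proteins. The BBSome, named after Bardet-Biedl syndrome, is an adaptor on these trains that carries membrane proteins out of the cilium, and the transition zone is the gate at its base. In mesenchymal cells the cilium is best known as the place where Hedgehog signals are received.

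Depth was alike, with 38792143 counts in total for shcircCsnk1g3 and 42709996 for shCTR. Levels are given as TMM-scaled CPM (counts of a gene scaled to a common library size), and the ratio of the libraries as a log2 ratio of shcircCsnk1g3 over shCTR, with the 95% Clopper-Pearson (exact) interval of the ratio of the counts in parentheses. The interval covers counting error only. A gene with 100 counts in each library has a half-width of 0.41 on this scale and one with 1000 counts a half-width of 0.13. The linear transcript of the targeted gene, Csnk1g3, had 2159 counts in shcircCsnk1g3 and 2411 in shCTR, a log2 ratio of -0.05 (-0.14 to 0.03). Circular RNA lacks the tail by which these libraries were selected, so the silencing itself was not measured here.

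The sequenced cells carried the transcripts of mesenchymal cells and hardly any of other lung cells. Of 11 mesenchymal marker genes, 10 passed the count limit, with a median log2 ratio of -0.07, and the summed level of the list was 13960 CPM in shcircCsnk1g3 and 14638 CPM in shCTR. Thy1 was the exception, with 0 and 1 counts. The 19 markers of airway ciliated cells that the table holds, whose motile cilia use the same IFT proteins, summed to 3.67 and 3.22 CPM, and 6 of them, Dnah5, Rsph1, Rsph4a, Tekt1, Sntn and Ccdc153, were at 0 in both libraries. Foxj1, the master regulator of motile ciliogenesis, had 12 and 7 counts. The 11 lung epithelial markers summed to 2.93 and 1.87 CPM, of which Krt8 gave most (92 and 46 counts), while Epcam, Sftpc and Scgb1a1 were at 0. The 10 leukocyte markers summed to 2.30 and 3.86 CPM, nearly all of it Cd68, and the 8 endothelial markers to 0.51 and 0.78 CPM. Of the airway ciliated cell markers, 6 passed the count limit and 4 of these were above 0 in log2 ratio, beside 50.4% of all genes. At least 1.5-fold higher were 2, Foxj1 and Spag6l (10 and 1 counts), beside 5.39% of all genes. The interval of Spag6l lay above 0. The 29 ciliary transport genes together held 612 and 547 CPM. The part of other cells in the ratios below was not tested beyond these levels.

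Ciliary transport genes tended to lie slightly higher in the circCsnk1g3-silenced library. Of the 29 genes, 23 had a log2 ratio above 0, or 79.3%, against 50.4% of all genes tested. In such bulk libraries, fewer cells that express a gene and less RNA of it per cell cannot be told apart. Their median log2 ratio was 0.14, with the middle part of the group between 0.04 and 0.37 (quartiles), while the median of all genes was 0.00 with quartiles of -0.16 and 0.16. The interval lay above 0 for 15 genes and below 0 for 2, which is 51.7% and 6.9% of the group. Over all genes the same shares were 26.9% and 28.2%, so that an interval that leaves out 0 was common in these libraries, and the group differed from the background in the balance between the directions. Among genes with at least 200 summed counts, 22 of 28 ciliary genes lay above 0 (all genes, 50.2%), 14 had an interval above 0 (29.5%) and 2 had one below (31%).

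The changes were small. Only Bbs1 and Ift22 were at least 1.5-fold higher, 6.9% of the group against 5.39% of all genes, which is near the background. No gene of the group was at least 1.5-fold lower, where 6.31% of all genes were. Without Bbs1 and Ift22 the median was 0.12, with 21 of 27 genes above 0. The counts of the whole group summed to 24010 in shcircCsnk1g3 and 23112 in shCTR, a log2 ratio of 0.16 (0.14 to 0.19).

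**Figure D1:**
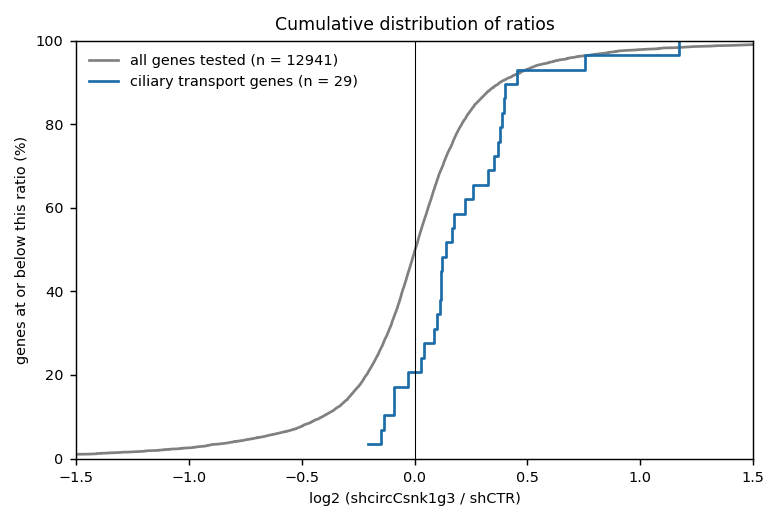
Cumulative share of genes (y axis, %) by log2 ratio of shcircCsnk1g3 over shCTR (x axis) for all 12941 genes tested (grey) and the 29 ciliary transport genes (blue). The blue curve lies to the right of the grey one through the middle of the range, with medians of 0.14 and 0.00, and meets it at the upper end, where only Bbs1 and Ift22 lie beyond 1.5-fold.

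**Figure D2:**
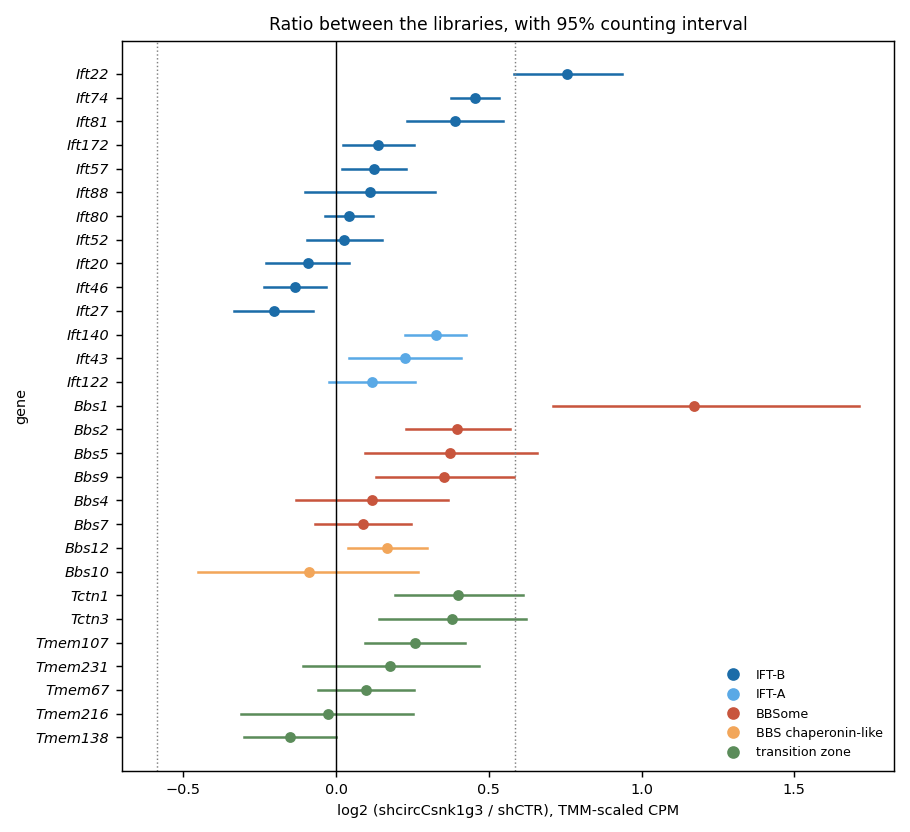
Log2 ratio of shcircCsnk1g3 over shCTR (x axis) for each of the 29 genes, grouped by complex (color). Points are ratios of TMM-scaled CPM, lines are 95% counting intervals, and dotted lines mark 1.5-fold in each direction. Every BBSome and IFT-A point lies above 0, beside 50.4% of all genes, while IFT-B spreads from -0.20 (Ift27) to 0.76 (Ift22).

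The promoters of ciliary genes are known for the X-box, the site bound by RFX transcription factors, of which Rfx1, Rfx2, Rfx3, Rfx5 and Rfx7 passed the count limit in these cells. Promoter sequences from RefSeq (GRCm38.p6, from 250 bases before to 50 bases after the annotated start) were found for 25 of the 29 genes, in 27 promoters. Ift122, Ift80, Ift81 and Tmem67 had no entry. A match to the X-box consensus on either strand was present in 18 of the 27 promoters (66.7%) and in 34.7% of all 32851 promoters of the same length. The half-site GTTGCC, searched on both strands and contained in some of the X-box matches, was present in 11 of 27 (40.7%) and in 12.5% of all. The matches are a description of letters, and binding was not measured.

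The X-box matches that contain the half-site, in 6 genes, are shown together with the match of Ift22, the IFT gene with the highest ratio. Each is read 5′ to 3′ on the strand of the gene, with the match in capitals. That of Bbs1 lies at chr19:4906605-4906634 (minus strand), of Ift22 at chr5:136908109-136908138 (plus), of Bbs7 at chr3:36613489-36613518 (minus), of Tctn1 at chr5:122264411-122264432 (minus), of Tctn3 at chr19:40612351-40612379 (minus) and of Tmem231 at chr8:111933781-111933810 (minus). The pair of Ift57 lies at chr16:49699199-49699228 and chr16:49699226-49699254 (plus).
Bbs1: ctgagctgGTTGCCAAGGCGACgcctggga
Ift22: tgttcccgGTCGCCGTGGAAACtgaccagc
Bbs7: gcgccccgGTTGCCTTGGAAACcggccagc
Tctn1: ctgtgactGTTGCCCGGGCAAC
Tctn3: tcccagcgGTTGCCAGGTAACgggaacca
Tmem231: cgccgtcgGTTGCCGTGGAGACtcggcgct
Ift57, first: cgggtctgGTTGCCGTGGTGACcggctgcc
Ift57, second: gccctgcgGTTGCCTGGTAACggtgggga
The match of Tctn1, at the end of its window, consists of the half-site and its reverse complement around a central pair of bases.

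Genes with and without these letters overlapped in their ratios. The 16 genes with an X-box match had a median log2 ratio of 0.15, with a range from -0.20 to 1.17, and the 9 genes without one had a median of 0.33, from -0.09 to 0.45. The 11 genes with a half-site had a median of 0.18 and the 14 without one a median of 0.14. Bbs1 and Bbs7 both carry a half-site, and their log2 ratios were 1.17 and 0.09. On the list of RFX and multiciliogenesis factors, 6 of 7 genes that passed the count limit were above 0, beside 50.4% of all genes, and the interval lay above 0 for 3 of the 7, Rfx1, Rfx2 and Rfx5, beside 26.9% of all genes. Those of Foxj1 (12 and 7 counts), Mcidas (20 and 17 counts) and Rfx7 (a log2 ratio of 0.02) included 0. Rfx1 had 2235 counts in shcircCsnk1g3 and 2074 in shCTR, a log2 ratio of 0.22 (0.13 to 0.30). Rfx3, the family member best known from ciliogenesis, had 242 and 291 counts, a log2 ratio of -0.16 (-0.41 to 0.09), so that its direction could not be determined at this depth.

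Genes of IFT-B went in both directions. The 11 of them summed to 367 CPM in shcircCsnk1g3 and 334 CPM in shCTR. The log2 ratio was above 0 for 8 genes, beside 50.4% of all genes, and below 0 for 3, with a median of 0.11. The interval lay above 0 for 5 and below 0 for 2, beside 26.9% and 28.2% of all genes. IFT-B is the complex that the anterograde kinesin pulls, and its loss leaves a cell without a cilium.

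Ift22 (ENSMUSG00000007987, chromosome 5, 136908150 to 136915404, plus strand, GRCm38), which encodes a small GTPase-like subunit, stood highest. It had 678 counts in shcircCsnk1g3 and 432 in shCTR, or 17.3 and 10.2 CPM, a log2 ratio of 0.76 (0.58 to 0.94). Ift74 and Ift81 encode a pair of coiled-coil proteins that bind each other and tubulin, the main cargo of the growing cilium, and both were higher in the silenced library. Ift74 (chromosome 4, 94614491 to 94693229) had 2993 and 2354 counts, a log2 ratio of 0.45 (0.38 to 0.53). Ift81 (chromosome 5, 122550204 to 122614518) had 727 and 598 counts, a log2 ratio of 0.39 (0.23 to 0.55). The intervals of the 2 partners overlap.

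The small GTPase Ift27 moved the other way from Ift22. Ift27 (chromosome 15, 78159463 to 78174107), which is needed for the exit of the BBSome from the cilium, had 902 counts in shcircCsnk1g3 and 1120 in shCTR, a log2 ratio of -0.20 (-0.33 to -0.08). Ift46 (chromosome 9, 44767908 to 44793447), a core subunit bound to Ift52, had 1486 and 1757 counts, a log2 ratio of -0.13 (-0.23 to -0.03). These were the 2 genes of the group whose interval lay below 0, and each was less than 1.5-fold lower. The known partner of Ift27, Ift25, which the table lists as Hspb11, had 543 and 587 counts, a log2 ratio of -0.0049 (-0.18 to 0.17), so that no difference was detectable at this depth.

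The other IFT-B genes differed little between the libraries, though the intervals of Ift172 and Ift57 lay above 0. Ift172, the largest subunit, had 1203 counts in shcircCsnk1g3 and 1177 in shCTR, a log2 ratio of 0.14 (0.02 to 0.26). Ift57 had 1499 and 1483 counts, a log2 ratio of 0.12 (0.02 to 0.23). The intervals of Ift88, the subunit known as Polaris, Ift80, Ift52 and Ift20, which also works at the Golgi, all held 0, with log2 ratios of 0.11, 0.04, 0.03 and -0.09. Ift88 had 370 and 369 counts, Ift80 had 2638 and 2760, Ift52 had 1045 and 1105, and Ift20 had 835 and 959.

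All 3 IFT-A genes of the group had a log2 ratio above 0, beside 50.4% of all genes. Ift140 (chromosome 17, 25016085 to 25099495), a core subunit, had 1787 counts in shcircCsnk1g3 and 1536 in shCTR, a log2 ratio of 0.33 (0.23 to 0.43). Ift43, a small peripheral subunit, had 511 and 471 counts, a log2 ratio of 0.22 (0.04 to 0.41). Ift122, another core subunit, had 825 and 819 counts, a log2 ratio of 0.12 (-0.02 to 0.26). The summed counts of the 3 genes were 3123 and 2826, a log2 ratio of 0.25 (0.18 to 0.33). For the sum of IFT-B it was 0.13 (0.10 to 0.17). Neither sum holds the subunits under other symbols described below, such as Wdr19, Wdr35 and Ttc21b of IFT-A. The sums therefore do not rank the complexes.

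The 6 Bbs genes of the BBSome leaned the same way. All were above 0, beside 50.4% of all genes, with a median of 0.36. The interval of 4 lay above 0, beside 26.9% of all genes. Bbs1 (ENSMUSG00000006464, chromosome 19, 4886878 to 4906628, minus strand), the subunit through which the GTPase Arl6 recruits the complex to membranes, had 109 counts in shcircCsnk1g3 and 51 in shCTR, or 2.78 and 1.21 CPM. Its log2 ratio was 1.17 (0.71 to 1.71), or 2.25-fold, the highest of the 29 genes, and it rests on the lowest counts.

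Bbs2 (chromosome 8, 94067954 to 94098928), a beta-propeller subunit, had 624 counts in shcircCsnk1g3 and 510 in shCTR, a log2 ratio of 0.40 (0.23 to 0.57). Bbs5, the subunit that binds phosphoinositides, had 236 and 196 counts, a log2 ratio of 0.37 (0.10 to 0.66). Bbs9, the scaffold of the complex, had 355 and 299 counts, a log2 ratio of 0.35 (0.13 to 0.58). These 3 lie within each other's intervals. Bbs4 and Bbs7 were close to the control level, with 270 and 268 counts for Bbs4, and 671 and 680 for Bbs7, and both intervals held 0 (log2 ratios of 0.12 and 0.09). An exon of Bbs4 shares 194 bases with Adpgk on the opposite strand, which had 2721 and 3123 counts.

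Of the genes of the chaperonin-like proteins that help to assemble the BBSome, Bbs12 had an interval above 0 and the others had intervals that held 0. Bbs12 had 1001 counts in shcircCsnk1g3 and 960 in shCTR, a log2 ratio of 0.17 (0.04 to 0.30). Bbs10 had 122 and 140 counts, and its interval from -0.45 to 0.27 was too wide to give a direction. The third of these proteins is encoded by Mkks, with 804 and 896 counts and a log2 ratio of -0.05 (-0.19 to 0.09).

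At the transition zone, 5 of 7 genes were above 0, beside 50.4% of all genes. The interval of 3 lay above 0 and that of none below, beside 26.9% and 28.2% of all genes. Tctn1 and Tctn3 encode tectonic proteins of the gate complex. Tctn1 (chromosome 5, 122237848 to 122264460) had 423 counts in shcircCsnk1g3 and 345 in shCTR, a log2 ratio of 0.40 (0.19 to 0.61). Tctn3 (chromosome 19, 40596446 to 40612233) had 318 and 263 counts, a log2 ratio of 0.38 (0.14 to 0.62). The pair was nearly alike in ratio. Exons of Tctn1 share 1574 bases with Hvcn1 on the opposite strand, which had 73 and 43 counts. The strand setting of the counting is not given in the sources used here, so a part of the Tctn1 count could belong to Hvcn1.

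The 5 membrane proteins of the gate showed less. Tmem107 had 653 counts in shcircCsnk1g3 and 588 in shCTR, a log2 ratio of 0.26 (0.10 to 0.42). Tmem231 had 208 and 198 counts and Tmem67, which encodes meckelin, 660 and 664, with log2 ratios of 0.18 and 0.10 and intervals that held 0. Tmem138 and Tmem216 are close neighbors on chromosome 19 (10570478 to 10577362 and 10533865 to 10556238, both on the minus strand) and were the 2 of these 7 transition zone genes below 0. Tmem138 had 658 and 787 counts, a log2 ratio of -0.15 whose interval, from -0.30, just reached 0. Tmem216 had 203 and 223 counts, a log2 ratio of -0.03 (-0.31 to 0.25), which was 0.00 with total counts and 0.01 with a correction for GC content and length. Both share exon bases with a gene on the opposite strand, Tmem138 with Cyb561a3 (191 bases) and Tmem216 with Cpsf7 (169 bases, 3587 and 3289 counts). So does Tmem67, with Rbm12b2 (289 bases, 1151 and 1194 counts).

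**Figure D3:**
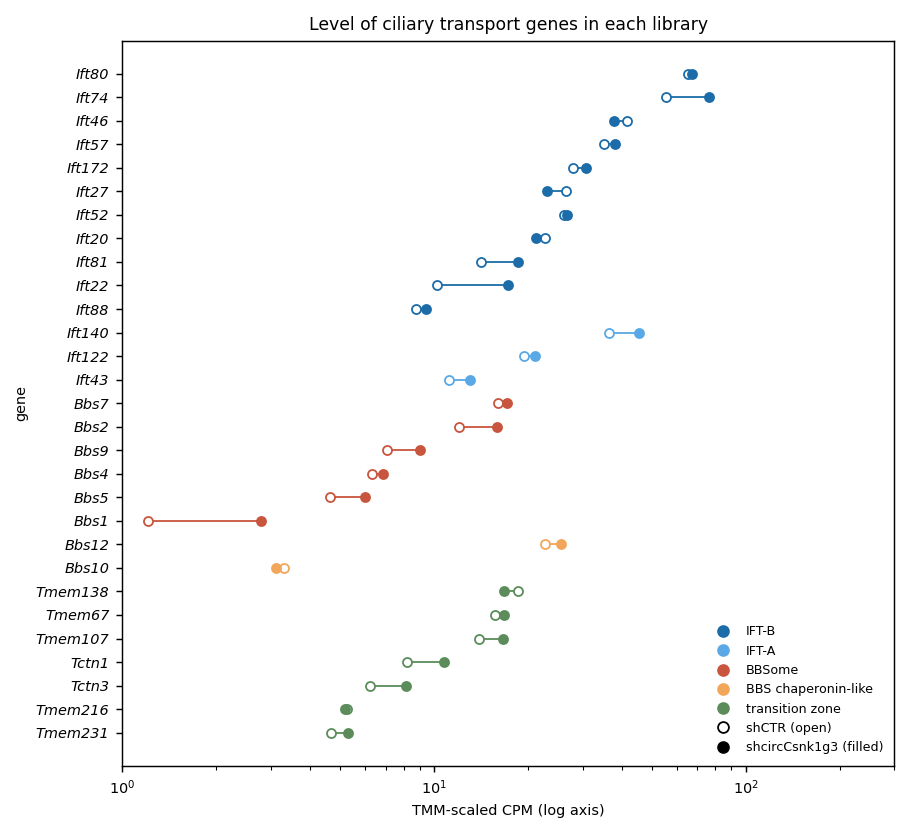
TMM-scaled CPM (x axis, log scale) of each gene in shCTR (open circles) and shcircCsnk1g3 (filled circles), grouped by complex (color) and ordered by the control level. The levels run from 1.21 CPM (Bbs1, shCTR) to 76.3 CPM (Ift74, shcircCsnk1g3), and the lines joining the libraries are short beside this range.

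Levels of different genes were compared per kilobase of merged exons (GENCODE M21). On this scale, as the mean of both libraries, the median was 6.19 CPM per kb for IFT-B, 4.92 for IFT-A, 1.74 for the BBSome and 2.10 for the transition zone, beside 6.07 for all genes tested. Ift74 was highest, with 28.7 CPM per kb in shcircCsnk1g3 and 21.0 in shCTR, followed by Ift20 with 14.0 and 14.9, and Ift57 with 13.4 and 12.3. Bbs1 was lowest, with 0.36 and 0.16. Among the 6 Bbs genes of the BBSome, Bbs2 was highest, with 4.81 and 3.65 CPM per kb, and the subunit Ttc8, which is not one of the 29 genes, had 13.5 and 10.9. The order of the complexes depends on the merged exon length, which counts rare long exons in full.

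**Figure D4:**
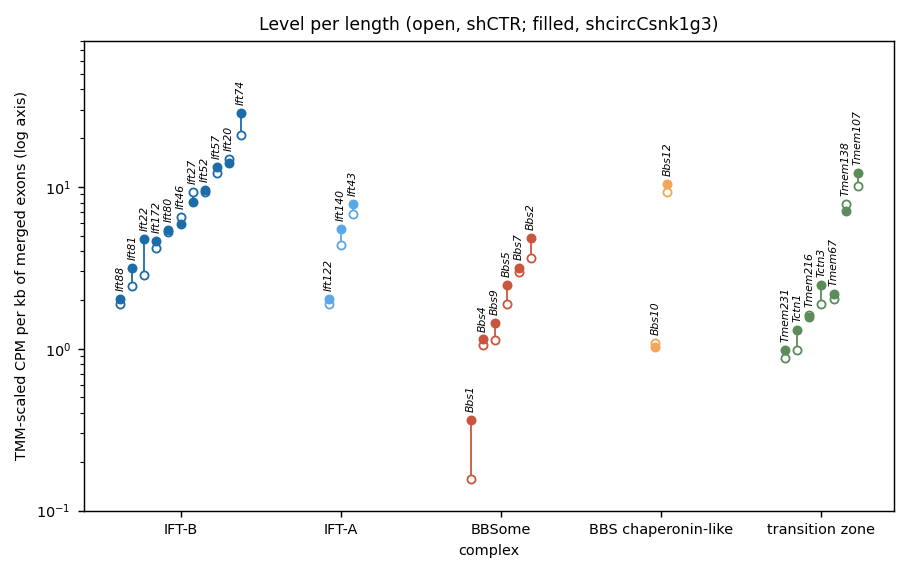
TMM-scaled CPM per kb of merged exons (y axis, log scale) for each gene in shCTR (open) and shcircCsnk1g3 (filled), by complex (x axis). Ift74 is at the top with 28.7 in shcircCsnk1g3, and Bbs1 lies below all others in both libraries.

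Subunits of IFT and the BBSome that carry other symbols, and proteins that assemble or regulate the BBSome, were set beside them. Of 15 such genes that passed the count limit, 10 were above 0, beside 50.4% of all genes, with a median log2 ratio of 0.16. The interval lay above 0 for 9 and below 0 for 1, beside 26.9% and 28.2% of all genes. Wdr19 (983 counts in shcircCsnk1g3 and 782 in shCTR, log2 ratio 0.44) and Wdr35 (829 and 743, 0.26), both of IFT-A, were among the 9, while Ttc21b, also of IFT-A, was the 1 below 0 (2006 and 2341, -0.12). With these genes, IFT-A had 5 of 6 subunits above 0 and a median of 0.24. Ttc26 and Traf3ip1 of IFT-B had log2 ratios of 0.47 and 0.16, and Cluap1, with 521 and 563 counts, had an interval that held 0. In the BBSome, Ttc8 had 2001 and 1746 counts (0.30), and Arl6, its recruiting GTPase, had 727 and 612 (0.35). With Ttc8 and Bbip1 added, 7 of 8 BBSome genes were above 0, and Bbip1 (508 and 607 counts, -0.15) was the exception.

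Of 18 other transition zone genes, 16 were above 0, with a median of 0.22, and the interval of 9 lay above 0 and that of none below, beside 26.9% and 28.2% of all genes. Nphp4, which encodes a nephrocystin, a protein of the gate named after nephronophthisis, a cystic kidney disease, had 511 counts in shcircCsnk1g3 and 275 in shCTR, a log2 ratio of 0.996 (0.79 to 1.22). Of that list, 2 genes were at least 1.5-fold higher, beside 5.39% of all genes. The 29 genes and both further lists were also counted together, without the other ciliary lists given below. Of these 62 genes, 49 were above 0, against 50.4% of all genes. At least 1.5-fold higher were 4, a share near the 5.39% of all genes, and at least 1.5-fold lower were 0, beside 6.31%.

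Of the 10 motor genes, 6 were above 0, beside 50.4% of all genes, with a median of 0.10. The interval lay above 0 for 5 and below 0 for 3, beside 26.9% and 28.2% of all genes. Of the 5 dynein-2 genes 4 were above 0, among them Dync2h1, the heavy chain, with 1149 and 1088 counts and a log2 ratio of 0.19 (0.07 to 0.31). Of the 5 kinesin-2 genes 2 were above 0, with a median of -0.06, and the subunits that work together were apart. Kif3a had 2643 counts in shcircCsnk1g3 and 2551 in shCTR, a log2 ratio of 0.16 (0.08 to 0.24). Its partner Kif3b had 1165 and 1906, a log2 ratio of -0.60 (-0.71 to -0.50). Kif3b was the 1 motor gene at least 1.5-fold lower, beside 6.31% of all genes.

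Genes of ciliary membrane traffic, which load the cilium, had 5 of 11 above 0 and a median of -0.02. For this list and those of the basal body, disassembly and proliferation, the share above 0 over all genes was 50.4%. Arl13b, the GTPase of the ciliary membrane, had a log2 ratio of 0.13 (0.02 to 0.24), and Tulp3, the adaptor that brings receptors to IFT-A, one of -0.07 (-0.12 to -0.01). Of 14 genes of the basal body and of cilium assembly, 11 were above 0, with a median of 0.13 and 0 past 1.5-fold. Of 7 genes of cilium disassembly, 2 were above 0, with a median of -0.12. Nedd9, the scaffold that activates Aurora A at the cilium base, had 1151 counts in shcircCsnk1g3 and 2171 in shCTR, a log2 ratio of -0.81 (-0.91 to -0.70). Since several disassembly genes are also mitotic genes, 13 genes of proliferation were set beside them: 2 were above 0, the median was -0.12 and the range -0.32 (Aurkb) to 0.14 (Pcna). The part of the cell cycle in the ratios of the ciliary genes was not tested.

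The list of Hedgehog pathway genes, which holds ligands and a gene for ligand release (Disp1) as well as proteins of the cilium, had a median log2 ratio of -0.26. Of 15 that passed the count limit, 4 were above 0, beside 50.4% of all genes, and 5 were at least 1.5-fold lower, beside 6.31%. The interval lay above 0 for 3 of the 15 and below 0 for 9, beside 26.9% and 28.2% of all genes. Gli1, a direct target of the pathway, had 36 counts in shcircCsnk1g3 and 106 in shCTR, a log2 ratio of -1.40 (-2.04 to -0.89). Ptch1, the Hedgehog receptor and also a target, had 1123 and 1456 counts, a log2 ratio of -0.27 (-0.38 to -0.15).

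Gas1, which encodes a co-receptor, had 2881 counts in shcircCsnk1g3 and 5316 in shCTR, a log2 ratio of -0.78 (-0.84 to -0.71). Gli2, the main activator, had 256 and 425 counts (-0.62), and the ligand gene Dhh had 33 and 101 (-1.45). Boc, another co-receptor, had 46 and 88 counts (-0.80). The transducer Smo and the repressor-forming Gli3 were nearer to 0, with log2 ratios of -0.11 (-0.17 to -0.06) and -0.01 (-0.09 to 0.06). The 4 genes above 0 were Kif7 (0.23), the pathway repressor Sufu (0.19), Evc (0.16) and the ciliary receptor Gpr161 (0.15), and the interval of Gpr161 included 0. Evc2 had 2535 and 3724 counts, a log2 ratio of -0.45 (-0.52 to -0.37). The pathway list thus held genes on both sides of 0, most of them below.

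**Figure D5:**
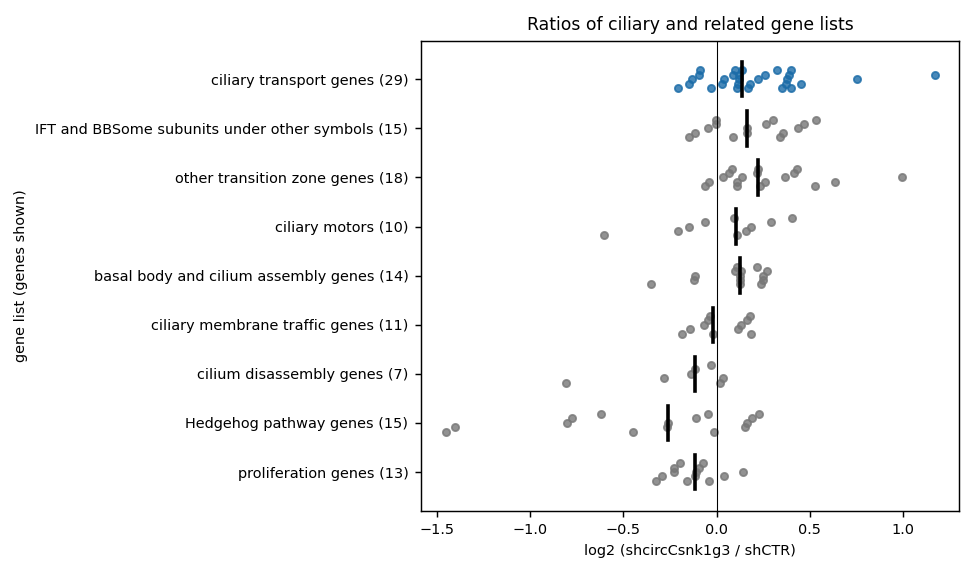
Log2 ratio of shcircCsnk1g3 over shCTR (x axis) for the 29 ciliary transport genes (blue) and for 8 related lists (grey), with the number of genes in parentheses and a black bar at each median. The medians of the transport, subunit and transition zone lists lie between 0.14 and 0.22, and the Hedgehog list has the lowest median, -0.26, with Dhh and Gli1 at the far left.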

How the data were processed

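The libraries were made with a stranded mRNA kit, 1 for each hairpin. Per the paper's methods, the authors aligned reads to GRCm38 with STAR and deposited RSEM estimated counts per gene, here as whole numbers, which were not rounded further. The authors also deposited TMM-scaled CPM for 11624 genes, used as an alternative. The 92 spike-in rows, all at 0, were left out.

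TMM factors (1.01 for shcircCsnk1g3, 0.989 for shCTR) and log2 ratios with a prior count of 2 were computed in R 4.3.3 with edgeR 4.0.16, after removal of genes under 10 counts in each of the libraries. Intervals are exact for counts taken as independent and cover counting error only. Reads without molecular identifiers are not independent molecules, so the intervals may be too narrow even for that error. Genes named are all 29 of the group, fixed genes of the other lists, and list genes past 1.5-fold with at least 50 summed counts. A result for 1 list gene under this rule is not reported here. Hspb11, Bbip1, Thy1, Aurkb, Pcna, Rfx2, Rfx5, Rfx7, Mcidas, Kif7, Sufu, Evc, Evc2, Gpr161, Disp1, the single marker genes and overlapping genes were named after their values were seen. The genes and lists were chosen with earlier results of these data known. Annotation was GENCODE M21 (GRCm38), which held 25251 of the 25509 identifiers. The steps were tested on simulated counts. Intervals and figures were made in python 3.11.15 with scipy 1.17.1 and matplotlib 3.10.9, and DESeq2 1.42.0 gave alternative size factors.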

Additional observations from a re-analysis of the deposited data

How the results depend on the processing

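No paired analysis was possible because each condition has a single library, so no replicate could be left out either. The alternatives were prior counts of 0.5 and 10, total counts, DESeq2 size factors, a table without the count filter, tables of genes with 50 or 200 counts in sum, the deposited TMM-scaled table, a 2-fold threshold and, chosen after seeing the data, a correction for GC content and length. The number of ciliary genes at least 1.5-fold higher, 2, became 1 with at least 200 summed counts, which by construction leaves out Bbs1, and 1 at a threshold of 2-fold. The median log2 ratio ranged from 0.13 to 0.17, the latter with total counts, where the median of all genes was 0.03. The number of genes with a log2 ratio above 0 was 24 with total counts, where the share of all genes above 0 was 56.0% in place of 50.4%. The number of intervals above 0 ranged from 13 to 16 and below 0 from 2 to 3. Of 260 values of single genes, 259 stayed within their own intervals, and Ift80 moved to -0.04 with the GC and length correction. The sign changed in 3 of the 260, that of Ift80 and those of Tmem216 with total counts (0.003) and with the GC and length correction (0.01). Depth limits Bbs1 and Bbs10 most.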
